A study of Drosophila melanogaster with 2 samples.

Results

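The protein-coding genes of chromosome 4 were examined for binding of maf-S, a small Maf transcription factor of Drosophila melanogaster. The members were defined by position alone: 80 of the 13945 protein-coding genes annotated on the 6 main chromosome arms lay on chromosome 4 (dm6). This set was chosen with earlier results of these data known. The data came from chromatin immunoprecipitation followed by sequencing (ChIP-seq) with an antibody to GFP, on whole embryos of both sexes aged 0 to 24 hours from a line that stably expresses maf-S with GFP fused to its C-terminus. There was 1 group of 2 biological replicates, numbered 2 and 3, from separate biosamples of the same fly line, and no other genotype, stage or treatment. The maf-S protein was followed as a tagged transgene product in whole embryos, so binding in a few cell types and weak binding in all of them cannot be told apart. Read depth is not given in the sources used here, and each share is limited by the number of genes or peaks behind it.

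Chromosome 4 is the smallest autosome of the fly. It is rich in transposable elements and carries marks of heterochromatin, with the proteins HP1a and POF spread over its gene-rich part, yet its genes are transcribed at ordinary levels. Many encode transcription factors and signalling proteins, among them ci and pan, the nuclear effectors of Hedgehog and Wingless signalling, and the Pax6 genes ey and toy. The maf-S protein has a basic leucine zipper and pairs with Cap'n'collar (Cnc), a factor of the stress response and of head development, to contact DNA.

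A gene was counted as bound when the summit of a peak in the authors' thresholded list lay within 1 kb of any of its annotated transcription start sites. That list held the 3205 peaks that passed the authors' irreproducible discovery rate (IDR) step, and they were the strongest 3205 of the 30000 in the pooled list. Signal is the value that the authors' peak caller gave to each peak, and ranks run from 1, the strongest, within each list. By this count 7 members were bound, at 6 loci: RpS3A, Asator, gw, Sox102F, PlexA, and the neighbours ATPsynbeta and CG11076, which shared 1 peak.

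The reference sequence around the summits is shown for 5 of these loci, since they carry the binding described here, and for the strongest peak of the chromosome, which lay between genes. Each is given on the plus strand of dm6 and centred on the summit of the thresholded peak, with 100 bases on each side, or 85 at RpS3A, where a wider window would have run further into the 5' UTR. Capitals mark the matches to the sequences searched, a GCTTTGTCA at gw and a TATCGATA at PlexA. The sequences are from the RefSeq copy of Release 6.
RpS3A (chr4:67178-67348): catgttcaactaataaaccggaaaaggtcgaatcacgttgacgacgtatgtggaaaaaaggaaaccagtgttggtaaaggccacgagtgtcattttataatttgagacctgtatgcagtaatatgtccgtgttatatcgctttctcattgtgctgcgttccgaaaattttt
Asator (chr4:486612-486812): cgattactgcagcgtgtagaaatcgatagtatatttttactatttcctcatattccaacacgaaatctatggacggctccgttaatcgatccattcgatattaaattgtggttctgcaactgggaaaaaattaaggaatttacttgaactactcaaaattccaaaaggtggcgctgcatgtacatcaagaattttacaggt
gw (chr4:659983-660183): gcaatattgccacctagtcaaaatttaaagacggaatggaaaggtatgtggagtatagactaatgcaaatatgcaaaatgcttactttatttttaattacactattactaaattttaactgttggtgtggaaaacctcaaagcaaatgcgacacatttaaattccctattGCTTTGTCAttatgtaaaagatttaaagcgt
Sox102F (chr4:807438-807638): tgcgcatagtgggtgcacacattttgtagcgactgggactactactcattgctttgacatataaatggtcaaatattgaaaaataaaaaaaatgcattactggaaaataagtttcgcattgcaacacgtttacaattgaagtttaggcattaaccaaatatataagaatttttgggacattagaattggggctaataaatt
PlexA (chr4:1027154-1027354): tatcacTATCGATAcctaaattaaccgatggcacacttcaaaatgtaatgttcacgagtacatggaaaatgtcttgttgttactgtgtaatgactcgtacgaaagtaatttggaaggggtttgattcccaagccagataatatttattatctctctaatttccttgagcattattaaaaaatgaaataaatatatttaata
Intergenic peak between dati and lgs (chr4:424716-424916): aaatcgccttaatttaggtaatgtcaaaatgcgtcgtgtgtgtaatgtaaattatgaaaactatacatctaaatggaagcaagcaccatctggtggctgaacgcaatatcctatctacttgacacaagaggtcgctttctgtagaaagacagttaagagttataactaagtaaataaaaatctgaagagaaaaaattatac

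Few of these genes were bound. The 7 bound members made up 8.75% of 80 (exact binomial 95% interval 3.59 to 17.2), against 2700 of 13865 genes on the other arms (19.5%, 18.8 to 20.1), and 19.4% of all protein-coding genes were bound. On the other arms taken singly the share ran between 17.1% on the X and 21.1% on 3R. The background share lay above the interval of the members, but no test was made of the difference, and the intervals cover counting error only, with neighbouring genes that share a peak counted separately.

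Genes for translation and RNA control held 2 of the bound members. RpS3A, a protein of the small ribosomal subunit (FBgn0017545, chr4:65225-67207, minus strand), had a summit 56 bp upstream of its start site with a signal of 132.5 and rank 1131. The peak of RpS3A ranked 1033 in replicate 2 (signal 61.22) and 1253 in replicate 3 (72.67). gw, the GW182 scaffold of microRNA silencing (FBgn0051992, chr4:649041-660608, minus strand), had the second strongest peak at a member, with a signal of 164.7 and rank 752, 100 bp upstream of one of its 2 start sites and within an intron. It ranked 619 in replicate 2 and 968 in replicate 3, so both libraries placed gw and RpS3A well inside the first 3205 ranks. The other genes of this group were weaker: eIF4G1, the scaffold of the cap-binding complex, had a best pooled rank of 10083 (29422 in replicate 2 and 7915 in replicate 3). Gyf had a best rank of 7012, and 4E-T, an eIF4E-binding protein, had no summit within 1 kb in any of the 3 full lists.

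Among the 19 transcription factor and chromatin genes, Sox102F, a SoxD-type HMG-box factor (FBgn0039938, chr4:800436-834393, minus strand), was the only bound member and had the strongest peak of all 80 genes. Its summit, of signal 213.2 and rank 458, lay 191 bp upstream of a start site inside the gene, and ranked 418 in replicate 2 and 490 in replicate 3. A weaker peak followed 202 bp away (signal 77.63, rank 2861), and another lay 1576 bp upstream of the gene's first start site (chr4:835774-836163, signal 82.46, rank 2585). Sox102F thus had 3 of the 13 thresholded peaks of the chromosome nearest to it.

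Other transcription factors of the chromosome fell short of the threshold by varying amounts. The Pax6 gene ey shared its best summit with the neighbouring gene myo, which encodes the TGF-beta ligand Myoglianin, at rank 3347 (signal 70.4). This summit lay 749 bp upstream of ey and 885 bp upstream of myo. It ranked 6566 in replicate 2 and 2824 in replicate 3, within the first 3205 ranks of replicate 3 only. Mitf, a factor of lysosomal gene expression, had a best rank of 3939 (5875 in replicate 2 and 3456 in replicate 3). Taf3, a subunit of the general factor TFIID, had 4498 and the homeodomain factor gene zfh2 4661. pan had a best rank of 4876 (4271 in replicate 2 and 7010 in replicate 3). Pur-alpha, a single-stranded nucleic acid binding protein, had 5374, at a summit shared with the DNA glycosylase gene Tdg. pho, the DNA-binding Polycomb group gene, stood at 10267, lgs, a cofactor of Wingless signalling, at 10855, ci at 15971, the Pax2 relative sv at 17915 and onecut at 28814. toy, the other Pax6 gene, had no summit within 1 kb in the pooled list or in replicate 2, and rank 10859 in replicate 3. Replicate 3 was the only list that ranked both Pax6 genes, with ey at 2824 and toy at 10859.

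Of the 16 signalling genes 2 were bound. PlexA, a receptor for semaphorins in axon guidance (FBgn0025741, chr4:1009895-1027101, minus strand), had a summit 153 bp upstream of its start site, of signal 112.5 and rank 1535, with ranks of 1109 in replicate 2 and 2097 in replicate 3. Asator, a kinase of the tau-tubulin kinase family (FBgn0039908, chr4:469409-488994, minus strand), had a summit 679 bp upstream of one of its 5 start sites, in an intron, of signal 93.02 and rank 2106. It ranked 2169 in replicate 2 and 2968 in replicate 3, inside the first 3205 in both. The second plexin gene, PlexB, lay just outside the threshold at rank 3525 (signal 67.9), 17 bp upstream of its start site. The replicates placed PlexB at 1878 and 7610, in replicates 2 and 3, on opposite sides of rank 3205. Actbeta, an activin-type ligand, had rank 5087 with close values in both libraries (5429 in replicate 2 and 5548 in replicate 3), and CaMKI, a calmodulin-dependent kinase, 9009. The TGF-beta ligand gene mav had rank 11070. Eph, the ephrin receptor tyrosine kinase gene, had 11578 and its ligand gene Ephrin 27600, and neither had a summit in replicate 3.

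The pair ATPsynbeta and CG11076 gave the weakest bound locus. ATPsynbeta encodes the catalytic beta subunit of the mitochondrial ATP synthase (FBgn0010217, chr4:1031484-1034917, plus strand), and CG11076 (FBgn0039929, chr4:1029711-1031757, minus strand) overlaps its 5' end on the other strand. Their common peak had a signal of 77.73 and rank 2849, 39 bp upstream of a start site of ATPsynbeta and 68 bp upstream of one of CG11076. It ranked 1526 in replicate 3 (signal 64.68), but the peak at that summit ranked 12212 in replicate 2 (17.37), where the best summit near either gene, at 7721, was another one. Only replicate 3 ranked this common peak better than the pooled list did. How each replicate entered the call cannot be read from these ranks. Of the 5 cytoskeleton, adhesion and muscle genes none was bound: Kif3C, a kinesin, had a best rank of 3687, the LIM protein gene Zyx 5782 and bt, which encodes the titin-like muscle protein projectin, 27918. Of the 6 mitochondrial, peroxisomal and lipid genes only ATPsynbeta was bound, with apolpp, the lipophorin precursor gene, at 5782 in common with Zyx. None of the 3 protein turnover and DNA repair genes and none of the 9 synapse and transport genes was bound, with unc-13, the factor of synaptic vesicle priming, at rank 7770 and no summit in replicate 2. Over all members 8.75% were bound, and over all protein-coding genes 19.4%. Groups of these sizes are too small to show a difference between roles, and none was tested.

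**Figure D1:**
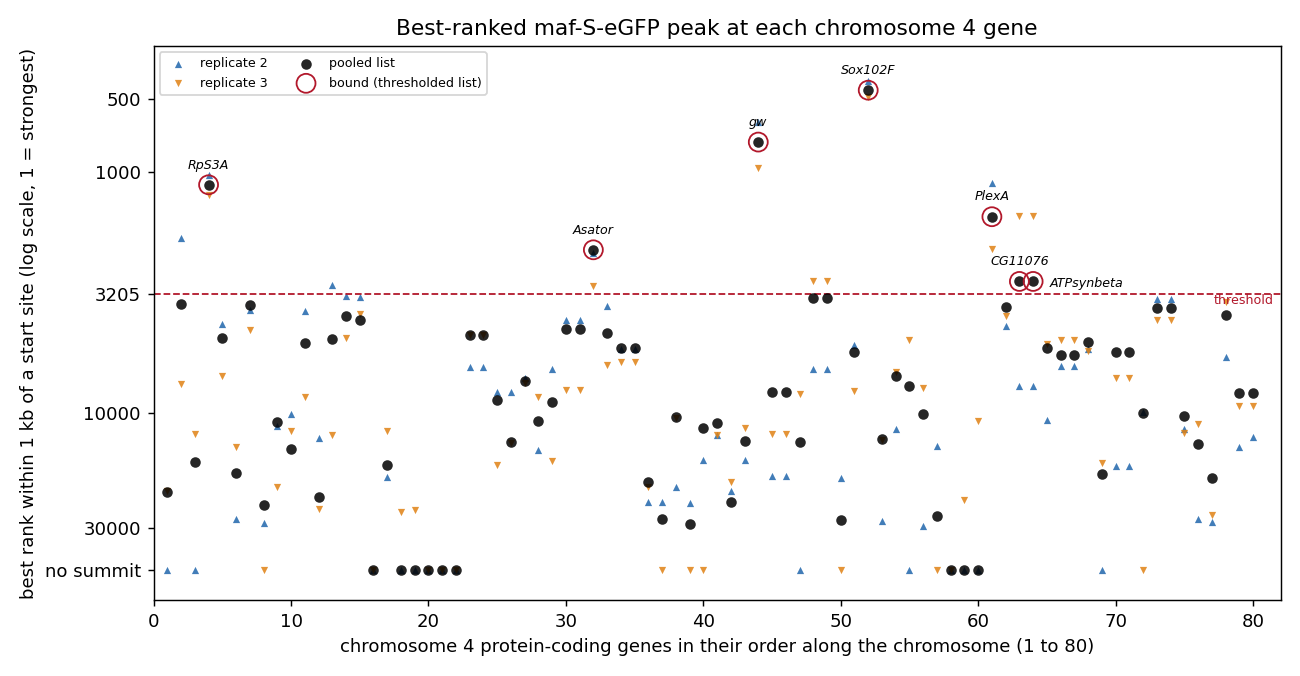
Best rank within 1 kb of a start site (y axis, log scale, 1 is the strongest) for each of the 80 genes in their order along the chromosome (x axis), in the pooled list (black), replicate 2 (blue) and replicate 3 (orange). The dashed line is rank 3205, red rings mark the 7 bound genes, points at the bottom have no summit in that list, and a band of genes lies just under the line.

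Just below the threshold the members were frequent in the pooled list. The best pooled rank of 27 of the 80 genes lay between 3206 and 6410, the next 3205 peaks after the threshold (33.8%, 23.6 to 45.2), against 1714 of 13865 genes on the other arms (12.4%, 11.8 to 12.9), and the share over all protein-coding genes was 12.5%. These 27 genes shared 20 summits, so the interval is too narrow for independent sites. Up to pooled rank 6410, 34 members were reached (42.5%), against 31.8% of the genes of the other arms. In each replicate alone fewer members lay between ranks 3206 and 6410, and fewer were reached up to rank 6410. The other arms were not counted in this way by replicate, so the excess is shown for the pooled list only. The unbound members nearest to the threshold were ey and myo at rank 3347, PlexB at 3525, anne at 3558, Mpv17, a gene of the mitochondrial inner membrane, at 3655, and CG32017 and Kif3C, which shared a summit, at 3687. Their signals, 70.4 to 65.78, compare with 77.73 for the weakest bound locus and with 72.27 for the weakest thresholded peak of the genome.

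In the whole pooled list most members had some summit near a start site. This held for 71 of 80 (88.8%, 79.7 to 94.7), at 61 separate summits, against 8762 of 13865 on the other arms (63.2%, 62.4 to 64.0) and 63.3% of all protein-coding genes. The list ends at 30000 rows and holds background by its own description, so a low rank need not be a binding site. The median best rank of these 71 genes was 7361 (quartiles 4498 and 13200), against 6316 (2461 and 13970) on the other arms. These values leave out genes without a pooled summit, which were a larger part of the other arms than of the members. Over all genes the order depended on the rank. Up to rank 3205 it was 8.75% of members against 19.5%, and up to rank 10000 it was 55.0% against 40.6%. Among genes with a summit, the better quartile of the members ranked past 3205, and that of the other arms within the first 3205.

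**Figure D2:**
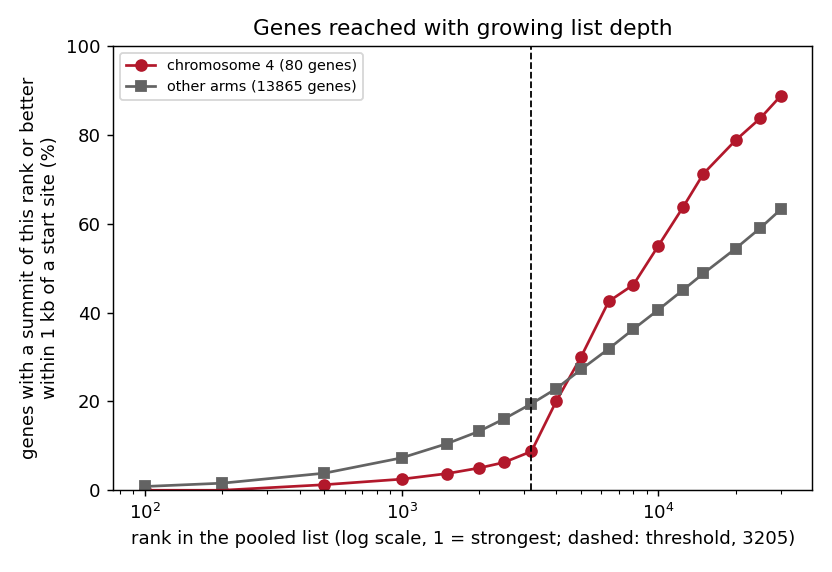
Percentage of genes (y axis) with a summit of at least a given pooled rank (x axis, log scale) within 1 kb of a start site, for chromosome 4 (red) and the other arms (grey). The red curve lies below the grey one up to the threshold of 3205 (dashed), at 8.75% against 19.5% there, and above it from rank 5000 on, ending at 88.8% against 63.2%.

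The features of the genes themselves differed between chromosome 4 and the rest. Members had on average 1.77 annotated start sites per gene and a median length of 10090 bp, against 1.4 and 2156 bp on the other arms, and each start site adds a window in which a summit counts. Among genes with 1 start site, 2 of 42 members were bound (4.76%, 0.582 to 16.2) against 14.9% on the other arms, and with 2 or more, 5 of 38 (13.2%, 4.41 to 28.1) against 32.1%. The share between ranks 3206 and 6410 was 33.3% (19.6 to 49.6) of members with 1 start site against 10.5%, and 34.2% (19.6 to 51.4) with 2 or more against 17.5%. Among genes at least as long as the median member, 4 of 40 members were bound, against 548 of 1916 on the other arms (28.6%). The share of the other arms thus lay outside the members' interval in both classes for ranks 3206 to 6410. For bound genes it lay outside with 2 or more start sites and inside with 1. Within 1 kb of the outermost 5' end, 41 of 80 members had an annotated transposable element against 705 of 13865 other genes. Of these 41, 2 were bound (4.88%, 0.596 to 16.5) and of the other 39 members 5 (12.8%, 4.30 to 27.4), against 11.1% and 19.9% on the other arms, both inside the intervals. Promoters of members, taken from 250 bp before to 50 bp after the outermost start, had a median GC content of 33.5% against 38.0%. The part of these features in the binding was not tested.

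Over whole lists, the share of peaks on chromosome 4 was lower among the strong ones than among the weak ones. It held 13 of 3205 thresholded peaks (0.406%, 0.216 to 0.693) and 328 of 30000 pooled peaks (1.09%, 0.979 to 1.22), with 1.01% of the assembled length of the 6 arms and 0.574% of their protein-coding genes. The interval of the thresholded share thus lay under the share of length but covered the share of genes. Of its pooled peaks, 3.96% (2.13 to 6.68) were in the thresholded list, against 10.8% (10.4 to 11.1) on the other arms. By rank, its share was 0.500% of the first 1000 peaks, 0.363% of ranks 1001 to 3205, 0.905% of ranks 3206 to 6410, 1.20% of ranks 6411 to 15000 and 1.22% beyond. The interval for the first 1000 peaks, 0.163% to 1.16%, covered the shares of both length and genes, and that past rank 15000, 1.05% to 1.41%, lay above both. Each replicate alone gave the same order of values, with 0.363% of ranks 1001 to 3205 in both and 1.25% and 1.33% of the ranks past 15000 in replicates 2 and 3. The median signal of the thresholded peaks of the chromosome was 112.5, against 109.5 over all 3205. No peak of that list had a signal under 72.27, so near medians are partly set by the cut. At bound genes the median signal was 112.5 on chromosome 4 and 119.3 on the other arms.

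**Figure D3:**
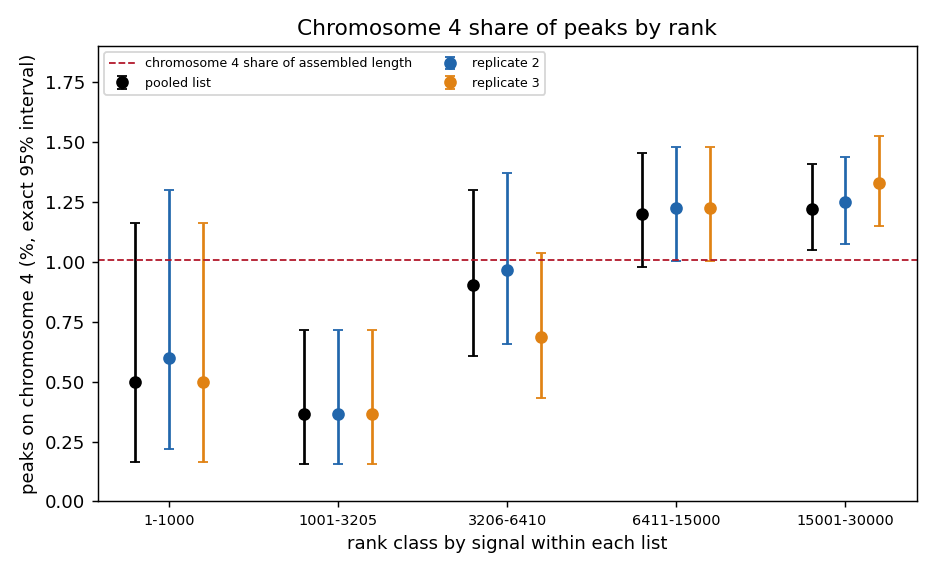
Percentage of peaks that lay on chromosome 4 (y axis) in classes of rank within each list (x axis), for the pooled list and each replicate, with exact binomial 95% intervals. The dashed line is the share of assembled length, 1.01%. All 3 lists lie under it at ranks 1001 to 3205, at 0.363%, and above it past rank 6410. The intervals at ranks 6411 to 15000 cover the line, and those past rank 15000 lie above it.

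Of the 13 thresholded peaks 7 lay within 1 kb of a member's start site and 6 did not. The strongest peak of the chromosome was one of these 6, in intergenic sequence between the protein-coding genes dati and lgs (chr4:424703-424945, signal 366.7, rank 132), 19095 bp from the nearest start site of a protein-coding gene, that of lgs, and 1251 bp from that of lncRNA:CR43437. It ranked 100 in replicate 2 and 170 in replicate 3, the best chromosome 4 rank in each. The next was in the 3' UTR of Cals (chr4:1113308-1113428, signal 264.6, rank 283; 388 in replicate 2 and 229 in replicate 3). Another strong one lay 3902 bp upstream of zfh2 (chr4:497713-498102, signal 212.4, rank 464; 643 and 401 in replicates 2 and 3). The other 3 were the peak upstream of Sox102F given above, one 11435 bp from dati (chr4:406845-407234, signal 77.37, rank 2876) and one 4442 bp from fuss (chr4:982736-983125, signal 82.41, rank 2588). These last differed between libraries: the peak near dati ranked 1686 in replicate 2 and 7047 in replicate 3, and that near fuss 17529 and 1740. In both replicates, 9 of the 13 peaks ranked among the first 3205.

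Transposable elements cover much of the chromosome, but no thresholded summit lay in one. Annotated elements took 24.8% of chromosome 4 against 5.74% of the other arms. They held 0 of its 13 thresholded summits (exact interval up to 24.7%) and 43 of its 328 pooled summits (13.1%, 9.65 to 17.3), against 0.157% and 0.374% on the other arms. The treatment of reads in repeats is not given in the sources used here, and its part in these shares was not tested.

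The 9 members without a pooled summit stood in 2 runs along the chromosome, a pattern seen only after their values were known. Of these, yellow-h, dpr7, RhoGAP102A, NfI, Syt7 and Rad23 lie between positions 227922 and 310822, where CG1674 alone had a summit near a start site, at rank 16412. The others, 4E-T, fuss and toy, are neighbours between 951542 and 1007922. In the first run the pooled list had 16.9 summits per 100 kb, none better than rank 7858. In the second it had 21.3, among them the thresholded peak of rank 2588 near fuss, against 24.3 over the whole chromosome. The runs were set by genes without a pooled summit near a start site, so low values in this list are partly built in. In the replicates only the first run stayed low, at 13.3 and 20.5 summits per 100 kb in replicates 2 and 3. The second had 24.8 in replicate 2, close to the value of the chromosome there, and 26.6 against 25.1 in replicate 3. Annotated elements took 24.4% and 24.3% of the 2 runs, close to the 24.8% of the chromosome. Replicate 3 did list a summit at dpr7, RhoGAP102A, fuss and toy, at ranks from 25893 to 10859, and 5 members had none in either replicate.

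Summits sat just upstream of start sites. For the 71 members the best pooled summit had a median position of -78 bp (upstream) relative to the nearest start site, and 51 (71.8%) were upstream, with 38 (53.5%) within 200 bp. On the other arms the median was -90 bp, with 69.6% upstream and 49.7% within 200 bp. All 7 bound members, at 6 loci, had the summit upstream of the nearest start site. At gw, Asator and Sox102F it still lay in an intron, and at ATPsynbeta in the 5' UTR of a longer transcript form. The share among bound genes of the other arms was not counted.

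**Figure D4:**
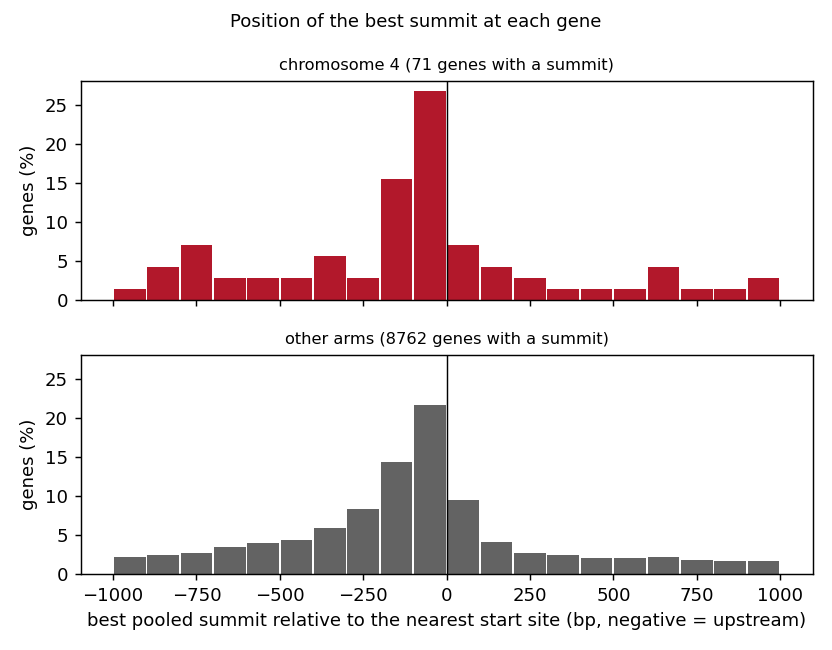
Percentage of genes (y axis) by position of their best pooled summit relative to the nearest start site (x axis, 100 bp bins, negative is upstream), for chromosome 4 (upper panel) and the other arms (lower panel). In both the tallest bin is the one just upstream of the start, and 53.5% and 49.7% of genes lie within 200 bp.

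The replicates ranked the strongest members alike but differed at many others, near the threshold and far from it, as at eIF4G1 and unc-13 above. Replicate 2 listed a summit for 66 members and replicate 3 for 68. Both replicates listed a summit for 59 members, and Spearman's rho of their ranks across these genes was 0.659, against 0.800 across 7475 genes of the other arms. Genes of a library share its depth and neighbours share peaks, so this is a description. The best summit of a gene could be a different peak in each replicate, as at CaMKI and Mpv17. The pooled ranks of members and of other genes were also spread differently, so their values of rho are not directly comparable. Replicate 2 alone placed 7 members within its first 3205 ranks and replicate 3 alone 9, with 5 in common: RpS3A, Asator, gw, Sox102F and PlexA. Replicate 2 added PlexB and CG31998, and replicate 3 added ey, myo, ATPsynbeta and CG11076. Of the 59 genes, 29 ranked better in replicate 2 and 30 in replicate 3.

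**Figure D5:**
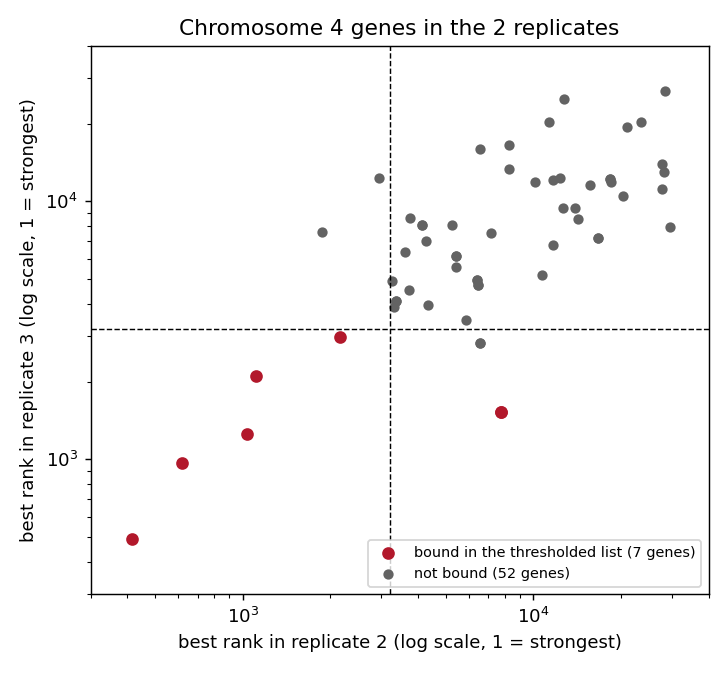
Best rank of each of the 59 members listed in both replicates, in replicate 2 (x axis) and replicate 3 (y axis), both on log scales with 1 as the strongest. Dashed lines are rank 3205. Inside both lines lie 5 bound genes and no unbound gene (grey), and the pair ATPsynbeta and CG11076 falls at 7721 and 1526 in replicates 2 and 3. The bound genes were called from both replicates, so this pattern is partly set in advance.

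Of the 7 sequences searched at the peaks of the chromosome, the Cnc-Maf sequence and the DRE matched once each and the others not at all. On both strands within 100 bp of the 13 summits, TGACNNNGC, the relaxed form of the Cnc-Maf sequence, matched at 1, that of gw, 70 bp from the summit, against 5.74% of all 3205 summits. TATCGATA, the DNA replication-related element (DRE) that Dref binds, matched at 1, that of PlexA, against 5.74% of all. The core promoter sequence GGTCACAC (motif 1) matched at none of the 13, against 3.59% of all summits. Neither did the AP-1 sequence TGACTCA, read from either strand, which 2.15% of all summits had. The E-box CACGTG was likewise at none (2.62% of all). There was no GAGAGAG, the repeat that GAGA factor binds (3.56% of all), and no E-box of the form CAGCTG (10.8% of all). TGACNNNGC and TGACTCA can overlap. Within 200 bp TGACNNNGC matched at 3 of the 13 (23.1%, 5.04 to 53.8), against 11.6% of all summits. With 13 peaks a count of 0 has an exact interval up to 24.7% and a count of 1 one of 0.195% to 36.03%, so none of these shares could be told from those of all summits.

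In the promoters of members the DRE was found at 7 of 80 (8.75%, 3.59 to 17.2) against 9.36% of all 13945 promoters. The 7 were Crk, Hcf, Taf3, Eph, PlexA, Actbeta and PIP4K, and only PlexA among them was bound. On the other arms 394 of 1298 genes with the DRE in the promoter were bound (30.4%) and 18.3% of those without it. Promoters were taken at the outermost start only, while a summit near any start site made a gene bound. Sequence and summit can thus lie at different starts, and gw, with TGACNNNGC near its summit, had none in its promoter. TGACNNNGC was in the promoters of 6 members (7.50%, 2.80 to 15.6, against 8.63%), namely CG31999, yellow-h, lgs, Actbeta, Arf4 and CG33521. None of these 6 was bound, and on the other arms 243 of 1198 genes with this sequence were (20.3%), close to the 19.4% of those without it, so that a count of 0 of 6 says little. GGTCACAC was in 4 (5.00% against 7.70%), and CAGCTG in 3 (3.75%, 0.780 to 10.6, against 17.7%), those of PMCA, Ekar and myo. Genes in this paragraph that carry a match were named after the search.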

How the data were processed

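The data are anti-GFP ChIP-seq peak lists of 2 biological replicates of maf-S-eGFP embryos. Per the labels, sonicated chromatin fell in a range of 200 to 800 bp. The lists deposited by the authors hold a signal value per peak. The −log10 q-value in the lists as deposited by the authors is constant in the thresholded list and was not used. Per the text files deposited beside the lists, each replicate list comes from that replicate's alignments and a control alignment, the pooled list from both replicates and the control, and the thresholded list from all 3. The caller, the aligner, the IDR threshold and the read depth are not given in the sources used here, and control data were not analysed here.

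Genes and transposable elements come from Ensembl release 115 and sequence from RefSeq Release 6, and no dm6 peak ran past a chromosome end. Peaks were ranked by signal within each list, and signals were not compared between lists. Lists of the dm3 assembly gave only the share of peaks on chromosome 4. Role lists covered 63 of 80 members. The genes named are the bound members, the 6 unbound ones of best rank (7 with a tie) and a set list of regulators. Others were named after their values were seen. The members and lists were chosen with earlier results of these data known. Shares have exact (Clopper-Pearson) 95% intervals, which cover counting error only. No test was run, since the study has 1 group and the members are a single list. The gene assignment was tested on simulated peaks. Python 3.11.15, numpy 2.4.6, scipy 1.17.1, pandas 2.3.3 and matplotlib 3.10.9 were used.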

Additional observations from a re-analysis of the deposited data

How the results depend on the processing

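The count of 7 bound members depended most on the distance and the threshold: it was 13 within 5 kb and 4 (RpS3A, gw, Sox102F and PlexA) among the 1602 peaks of highest signal, where the other arms had 5015 and 1537 bound genes against 2700. It was 6 within 500 bp or with the peak interval over the start site (other arms 2350 and 1604), 5 from the outermost 5' end only, which left out Sox102F and Asator, and 7 with RefSeq genes, an alternative chosen after seeing the data. The share on chromosome 4 was the lower one in each setting. However, its interval covered the share of the other arms at the stricter threshold (1.38% to 12.3% against 11.1%), with the peak interval over the start site (2.80% to 15.6% against 11.6%) and without replicate 2 (5.28% to 20.3% against 19.0%). Leaving out one replicate gave 7 to 9 bound members, a chromosome 4 share of 0.406% to 0.437% of peaks and a median best rank of 7976 to 8062, against 7361 in the pooled list. For these counts and shares the first 3205 peaks of the other replicate's full list were used, without an IDR step. On dm3, chromosome 4 held 14 of 3508 thresholded peaks (0.399%). Within 50 bp of the summits neither TATCGATA nor TGACNNNGC matched (0% of 13 each, against 7.69% within 100 bp), by the narrower window alone. Within 200 bp TGACNNNGC matched at 23.1% of the 13, against 11.6% of all summits, and CACGTG and CAGCTG at 7.69% each, against 0% within 100 bp. No paired analysis was possible because the study has a single group. Read depth and the treatment of repeats, both unknown here, limit what a low rank on this chromosome can show.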

Other observations

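Of the 38 annotated genes of chromosome 4 that are not protein-coding, transposable elements left out, 1 had a thresholded summit within 1 kb of a start site (2.63%, exact binomial 95% interval 0.0666 to 13.8), against 344 of 4181 on the other arms (8.23%, 7.41 to 9.10). This was asRNA:CR44031 (chr4:1027863-1029359, plus strand), which shares the peak of PlexA, 609 bp upstream of its start site. In the pooled list 26 of the 38 had a summit within 1 kb, against 1850 of 4181. These values were not tested.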
